A study of Mus musculus with 3 samples.

Results

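The Hox gene clusters were examined here as binding targets of CTCFL, the testis-specific paralog of CTCF, in mouse embryonic stem (ES) cells. All protein-coding genes of the GENCODE annotation on mm9 whose symbol is Hoxa, Hoxb, Hoxc or Hoxd followed by a number were taken, which gave 39 genes in 4 clusters out of 22359 protein-coding genes. A cluster was measured from the outermost ends of its Hox genes, and its window included 100 kb on either side. Of the 7436 CTCFL peaks in the list, 4 had their midpoint in one of the 4 windows. The rule for the genes used no measured value, although it was chosen with earlier results of these data known.

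The ES cells carried rtTA at the ROSA26 locus and a TRE-mCTCFL-V5-GFP-neomycin transgene, and clones had been selected with G418. Doxycycline was given for 3 days to induce CTCFL-V5-GFP, GFP-positive cells were sorted, and CTCFL was precipitated with a V5 antibody. Non-induced and unsorted cells of the same kind, treated with the same antibody, served as the control, and CTCF was precipitated from ES cells with its own antibody. All cells were grown with LIF on gelatin. CTCFL therefore came from a transgene switched on by rtTA, outside the testis, and CTCF was present in the same cells. Each condition had 1 library, so no value below has a spread between replicates and no test between conditions was possible. The list holds more peaks than the study counts as CTCFL sites, and how these numbers relate is not stated, so all densities and shares below refer to the whole list. It gives only the start and the end of each peak of the induced cells, so the depth behind a peak is unknown, and CTCF binding and gene expression were not analysed here.

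Hox genes encode homeodomain transcription factors that give the segments of the body axis their identity. They lie in clusters in the order in which they act, from the anterior genes of paralog group 1 to the posterior genes of group 13, and in ES cells they are silenced by Polycomb complexes. CTCF is known to bind between Hox genes, where its sites mark borders between active and Polycomb-covered chromatin. CTCFL shares the zinc finger domain of CTCF, and a CTCF-like sequence is the natural one to look for under its peaks.

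The consensus searched here, on both strands, was CCNNNAGGNGGCGC, where N is any base. It has 14 positions, of which 10 are fixed, and these are numbered from 1 starting with its 5′ base. The best match in each of the 4 peaks is given here within 100 bases of mm9, written 5′ to 3′ on the strand of the match with the match in capitals, because these are the sequences that CTCFL peaks covered in or near the Hox clusters. A substitution gives the base of the consensus, its position and the base found.
Hoxa5 promoter peak, chr6:52154612-52154711, minus strand: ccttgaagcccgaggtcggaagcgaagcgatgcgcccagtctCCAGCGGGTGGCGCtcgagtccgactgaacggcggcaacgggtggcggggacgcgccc
Hoxb13 to Hoxb9 peak, chr11:96123021-96123120, minus strand: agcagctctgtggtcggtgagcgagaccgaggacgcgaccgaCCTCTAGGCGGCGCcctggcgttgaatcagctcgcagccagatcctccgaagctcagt
Hoxb1 to Skap1 peak, chr11:96269166-96269265, minus strand: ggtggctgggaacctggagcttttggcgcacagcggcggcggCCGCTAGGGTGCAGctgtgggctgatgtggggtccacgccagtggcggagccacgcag
Evx2 peak, chr2:74493903-74494002, plus strand: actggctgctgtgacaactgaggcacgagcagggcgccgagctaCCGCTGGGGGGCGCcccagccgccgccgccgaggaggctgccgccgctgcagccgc
The Hoxb13 to Hoxb9 peak held an exact match. The Hoxa5 and Evx2 peaks held matches with 1 substitution, A6G in both. The best sequence in the Hoxb1 to Skap1 peak had the 3 substitutions G10T, G13A and C14G, and no match with up to 2 mismatches was found there. Thus 3 of the 4 peaks held a match with at most 1 mismatch, beside 43.9% of all 7436 peaks. This count accepts 1 base at each fixed position and weighs all substitutions alike. Of 2835 matches with exactly 1 mismatch in all peaks, 204 had G13A, 165 had C14G and 36 had G10T. Among the single substitutions these had ranks 3, 5 and 21. The count therefore does not show that the Hoxb1 to Skap1 peak lacks a CTCF-like sequence.

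The peak in the Hoxa cluster lay at the promoter of Hoxa5, a group 5 gene needed for the respiratory tract and the cervical to thoracic skeleton. It extended over 416 bp of chromosome 6, from 52154474 to 52154889, and spanned the start of Hoxa5, a minus-strand gene from 52151753 to 52154586. Its midpoint was 95.5 bp upstream of the TSS, and its match lay 19 bp from the midpoint, from 52154656 to 52154669. The peak also fell in introns of the long annotated transcripts of Hoxa3 and of the opposite-strand lincRNA 2700086A05Rik. Next to Hoxa5, the distances from the TSS to this peak were 4039.5 bp for Hoxa6, 8384.5 bp for Hoxa3 and 12929.5 bp for Hoxa4. The peak was rich in CpG, with 84.1 CpG per kb against 29.8 over the whole Hoxa cluster, and its GC content was 57.5%. This sets a promoter beside a whole cluster, and CpG density over all peaks or promoters is not given here.

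The peak in the Hoxb cluster lay in the long interval between Hoxb13, which acts in the prostate and tail, and Hoxb9, a gene of the thoracic skeleton. It covered 633 bp of chromosome 11, from 96122711 to 96123343, and its midpoint was 9744 bp upstream of Hoxb9 and 67397 bp downstream of Hoxb13. It was thus no promoter peak of a Hox gene. The midpoint lay in a coding exon of Gm53, a gene of the interval annotated as protein-coding. It was 103 bp downstream of the start of a non-coding transcript of Gm53 and at -3451 bp from the miRNA gene Mir196a-1. The exact match, from 96123065 to 96123078, was 44.5 bp from the midpoint. GC content was 53.2%, with 37.9 CpG per kb.

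The remaining 2 peaks lay outside the clusters. On the Hoxb1 side of the Hoxb cluster, a peak of 556 bp on chromosome 11, from 96268924 to 96269479, was 39631.5 bp beyond the cluster edge. It was intergenic, 42135.5 bp downstream of the TSS of Hoxb1, a gene of the hindbrain, and upstream of Skap1, which encodes a T-cell adaptor. On the Hoxd13 side of the Hoxd cluster, a peak of 496 bp on chromosome 2, from 74493834 to 74494329, lay in a coding exon of Evx2, the homeobox gene that adjoins the cluster. Its midpoint was 3394.5 bp downstream of the nearest TSS of Evx2 and 12285.5 bp upstream of Hoxd13, a gene of digit formation. This was the peak richest in GC and CpG of the 4, with 72.8% GC and 127 CpG per kb, and its match was at -128 bp from the midpoint, toward lower coordinates. All 36-base windows of the 4 peaks were unique in the genome (100%).

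**Figure D1:**
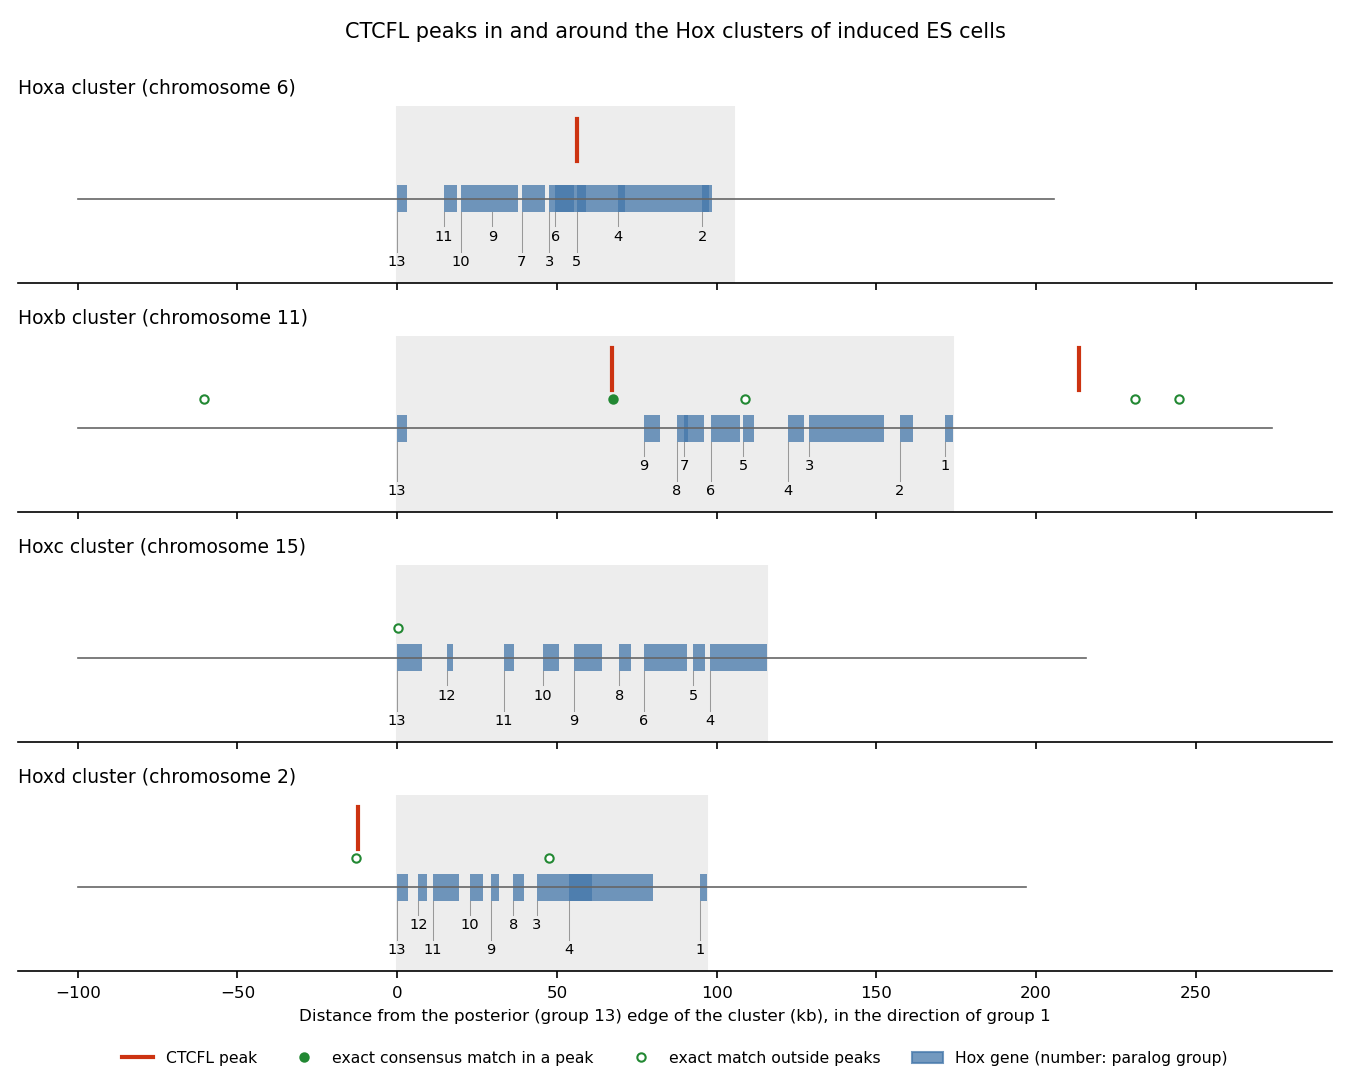
Map of the 4 Hox clusters from the posterior edge (0 kb) toward the anterior genes, with 100 kb on either side; the gray area is the cluster, blue boxes are the Hox genes reported here, numbers stand at gene starts and give the paralog group. Red bars are the 4 CTCFL peaks, of which 1 each lay inside Hoxa and Hoxb, and green circles are the 8 exact consensus matches, filled for the 1 inside a peak.

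The 4 clusters were then compared by their number of peaks. The Hoxa cluster on chromosome 6 (52105366 to 52210874, 105.509 kb, 11 genes) held 1 peak, and its flanks held 0. The Hoxb cluster on chromosome 11 (96055630 to 96229570, 173.941 kb, 10 genes) held 1 peak, with 1 more in the anterior flank. The Hoxc cluster on chromosome 15 (102751534 to 102867274, 115.741 kb, 9 genes) held 0 peaks, as did both of its flanks. The Hoxd cluster on chromosome 2 (74506367 to 74603200, 96.834 kb, 9 genes) held 0 peaks, with 1 in the posterior flank. The whole windows thus held 1, 2, 0 and 1 peaks, and a count of 0 has an exact 95% Poisson upper limit of 3.69. Here and below such intervals cover counting error only.

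Inside the clusters the density was 0.948 peaks per 100 kb for Hoxa (0.0240 to 5.28), 0.575 for Hoxb (0.0146 to 3.20), 0 for Hoxc (0 to 3.19) and 0 for Hoxd (0 to 3.81). These intervals overlapped one another, which is not a test of a difference. The counts inside, 1, 1, 0 and 0, were too few to tell the clusters apart. The 4 clusters together had 2 peaks in 492.025 kb, or 0.406 per 100 kb (0.0492 to 1.47), and their flanks had 2 in 800 kb, or 0.250 per 100 kb (0.0303 to 0.903). Over all 21 chromosomes with peaks the density was 0.280 per 100 kb (0.274 to 0.287), a value inside both Hox intervals. Their lengths were taken whole, undetermined bases included. Among consecutive windows of the genome as long as the Hoxa, Hoxb, Hoxc and Hoxd windows, 42.8%, 48.3%, 43.9% and 42.6% held at least 1 peak. A window with 0 or 1 peaks was thus ordinary for this list.

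**Figure D2:**
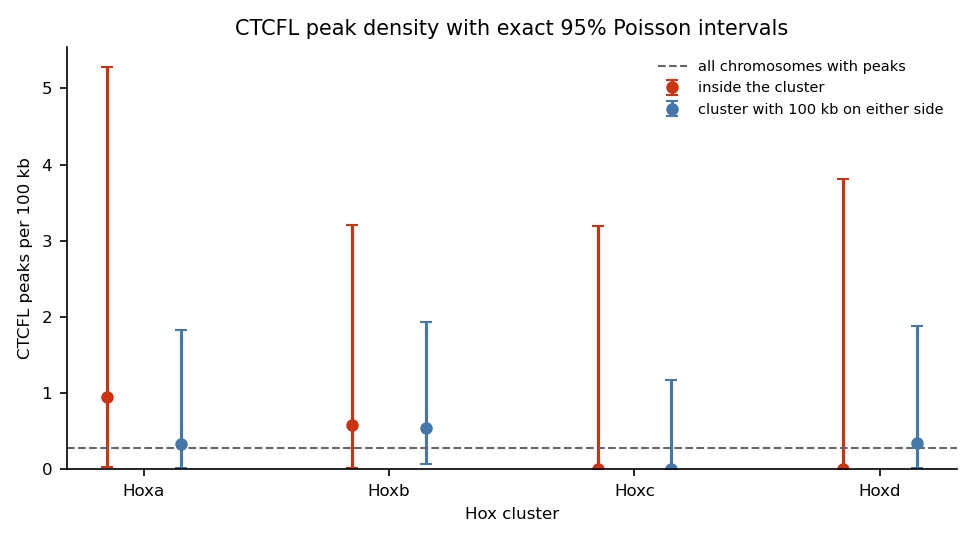
CTCFL peaks per 100 kb (y axis) inside each Hox cluster (red) and in the cluster with 100 kb on either side (blue); bars are exact 95% Poisson intervals from the counts and the dashed line is the value for all chromosomes with peaks, 0.280. The intervals of the 4 clusters overlap, and each reaches or spans the dashed line.

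Sequence that short reads cannot place did not cover much of the clusters. The share of 36-base windows found once in the genome was 99.2% in the Hoxa cluster, 95.2% in Hoxb, 98.4% in Hoxc and 98.6% in Hoxd. With the flanks it was 94.2% for Hoxa and Hoxb, 97.8% for Hoxc and 94.7% for Hoxd. The windows held 0 undetermined bases. GC content was 48.93 to 50.01% in the clusters, and CpG density was 29.8 per kb in Hoxa, 20.9 in Hoxb, 21.5 in Hoxc and 28.0 in Hoxd.

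Next, each Hox gene was assigned its nearest peak, by the distance from the TSS of its protein-coding transcripts to the midpoint of the peak. A promoter peak, with its midpoint from -2 kb to +1 kb of a TSS, was found at 1 of the 39 genes, Hoxa5. This is 2.56% (95% Wilson interval 0.454 to 13.2%), beside 11.2% of all 22359 protein-coding genes, which lies within the interval. Hox promoters are often CpG islands, and 25 of the 39 genes had a CpG-rich start, beside 10781 of all 22359 protein-coding genes. Such a start had, within 500 bp of the TSS, an observed to expected CpG ratio of at least 0.6 and at least 50% GC. Hoxa5 was the 1 gene of these 25 with a promoter peak, and among the 10781 genes of the genome the share was 18.4%. No interval was computed for 1 of 25 and the difference was not tested, so no shortage is claimed. Within 10 kb of a peak were the 4 genes Hoxa3, Hoxa5, Hoxa6 and Hoxb9 (10.3%, 4.06 to 23.6%), beside 20.5% of all genes. The 39 genes share the peaks of their cluster and are not independent, so the Wilson intervals are narrower than they should be.

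The median distance from a Hox gene to its nearest peak was 42135.5 bp, and the median over all protein-coding genes was 60908 bp with quartiles of 14975.5 and 210737 bp. Without the peaks narrower than the median width, among them the Hoxa5 peak and the peaks nearest to the Hoxc cluster, the Hox median was 106956 bp, beside 137482 bp over 22342 genes on chromosomes that kept a peak. In the Hoxa cluster the distance ran from 95.5 bp at Hoxa5 to 56114.5 bp at Hoxa13, a gene of the digits and the urogenital tract, with a median of 21468.5 bp at Hoxa9, which acts in blood progenitors. On the anterior side it was 39269.5 bp at Hoxa2, a gene of the hindbrain and cranial neural crest. Among the genes named, distance thus increased on both sides of Hoxa5, with the exception of Hoxa3, whose long transcripts start posterior of Hoxa5.

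In the Hoxb cluster the distance was shortest at Hoxb9 and was 20192 bp at Hoxb8, 22544 bp at Hoxb7 and 30763 bp at Hoxb6. It was 40882 bp at Hoxb5, 54971 bp at Hoxb4 and 61613 bp at Hoxb3, and for Hoxb2, at 56255.5 bp, and Hoxb1 the peak of the anterior flank was nearer. All 9 genes from Hoxb1 to Hoxb9 lay whole in the peak-free stretch of 145.58 kb between the 2 peaks. In the Hoxd cluster the Evx2 peak was the nearest for all 9 genes, from 12285.5 bp at Hoxd13 through 41655.5 bp at Hoxd9 to 106956 bp at Hoxd1. The cluster lay whole in a peak-free stretch of 1191.41 kb that starts at this peak, and the next peak was 1082724 bp beyond the Hoxd1 side.

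The Hoxc cluster was the farthest from any peak. All 9 of its genes were beyond 100 kb, from 135838 bp at Hoxc13, a gene of the hair follicle, to 191174 bp at Hoxc9, with a median of 161237 bp. Besides Hoxd1 these were the only Hox genes beyond 100 kb, 10 of 39 in all, beside 8870 of all 22359 protein-coding genes. The peak-free stretch around the cluster measured 385.174 kb, and the nearest peaks lay 135838 bp beyond the Hoxc13 edge and 133873 bp beyond the Hoxc4 edge. A longer stretch of 633.93 kb, posterior of the Hoxa5 peak, held the 6 genes from Hoxa6 to Hoxa13 whole. Between all neighboring peaks of the list the median gap was 113.218 kb with an upper quartile of 331.962 kb. Gaps at least as long as the one at Hoxc made up 22.3% of the 7415 gaps, and those as long as the one at Hoxd 6.70%. Because long gaps take up most of the genome, gaps at least as long as that at Hoxc held 76.1% of the summed gap length. For Hoxd this share was 46.2%.

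**Figure D3:**
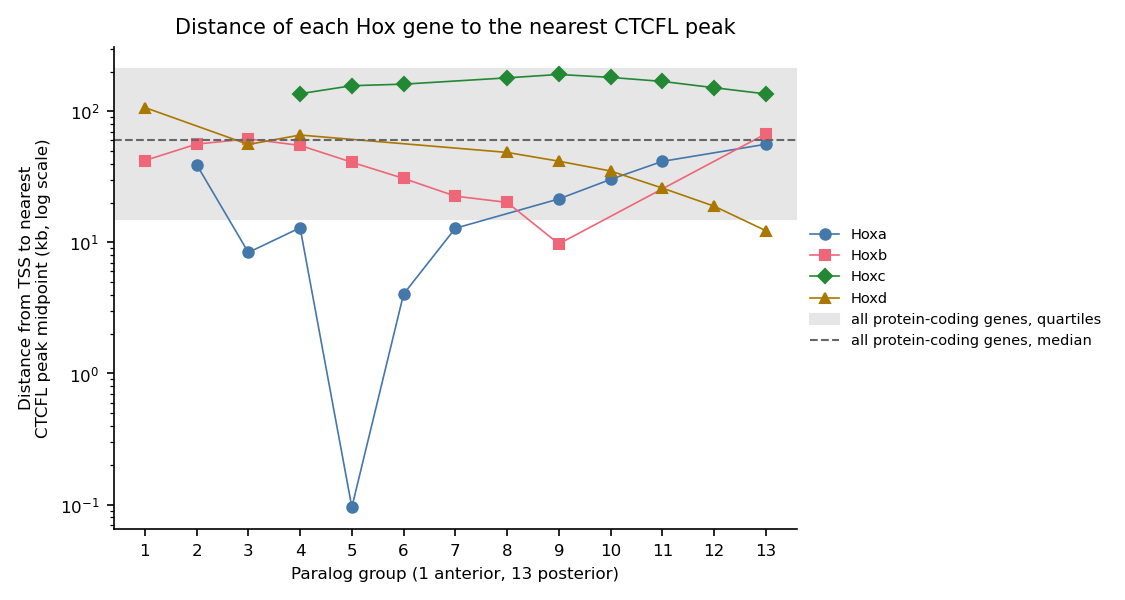
Distance from the TSS to the midpoint of the nearest CTCFL peak (kb, log axis) for the Hox genes reported here, by paralog group, with 1 line for each cluster; the dashed line and gray band are the median and quartiles over all protein-coding genes. Hoxa5 is lowest at 95.5 bp, and the 9 Hoxc genes lie between 135838 and 191174 bp, above the median of all genes and below their upper quartile.

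Grouped by position along the body axis, the 12 genes of the anterior groups 1 to 4 had a median distance of 55437.8 bp (8384.5 to 136321 bp). For the 11 genes of the middle groups 5 to 8 it was 30763 bp (95.5 to 180094 bp), and for the 16 genes of the posterior groups 9 to 13 it was 41593.5 bp (9744 to 191174 bp). The ranges of the 3 groups overlapped over most of their extent. Genes of a single paralog group also differed widely, since Hoxa5 lay 95.5 bp, Hoxb5 40882 bp and Hoxc5 156901 bp from a peak. Group 9 ran from 9744 bp at Hoxb9 through 21468.5 bp at Hoxa9 and 41655.5 bp at Hoxd9 to 191174 bp at Hoxc9.

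The miRNA genes of the clusters followed their neighbors. Mir196a-1, near Hoxb9, was the nearest to a peak at -3451 bp, the sign marking a peak upstream of the gene. Its relatives lay farther away, with 25482.5 bp for Mir196b in the Hoxa cluster and -188076 bp for Mir196a-2 in the Hoxc cluster. For Mir10a, beside Hoxb4, and Mir10b, beside Hoxd4, the values were -55452 and -70045.5 bp. Mir615, in the Hoxc cluster, had its nearest peak at 155806 bp. Of the long non-coding genes, 2700086A05Rik ran across the Hoxa5 peak, with its nearest start 3558.5 bp from the midpoint, and the Hoxa11 antisense transcript Hoxa11as was at -39710.5 bp.

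To see how many candidate sequences the clusters offer, consensus matches were counted whether or not a peak covered them. The 4 clusters contained 4 exact matches (0.813 per 100 kb), and 1 of these lay in a peak (25%, 4.56 to 69.9%), while of the 3202 exact matches in the genome (0.121 per 100 kb) 30.4% did. The windows contained 8 exact matches, of which 1 was in a peak (12.5%, 2.24 to 47.1%). With at most 1 mismatch the clusters contained 48 matches, or 9.76 per 100 kb against 1.96 in the genome. A peak covered 2 of these 48 (4.17%, 1.15 to 13.98%), beside 7.31% of 52074 matches in the genome. By cluster these matches numbered 6 in Hoxa, 20 in Hoxb, 7 in Hoxc and 15 in Hoxd. Per 100 kb this was 5.69, 11.5, 6.05 and 15.5, so Hoxd was the densest. The Hox clusters thus held more of these letters per length than the genome as a whole, and most of the matches, in the clusters as in the genome, were outside the peaks. The fixed bases of the consensus are mostly G and C, and GC and CpG content of the genome are not given here. Whether base composition accounts for the higher density was not tested. The genome length also included undetermined bases, of which the Hox windows held 0.

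The exact matches without a peak in the clusters and the one beside the Evx2 peak are shown with 8 bases of mm9 on either side, in the same way as above, since they have the same fixed bases as the match in the Hoxb13 to Hoxb9 peak.
Hoxb5, chr11:96164551-96164580, plus strand: gtcaatcgCCGGGAGGTGGCGCgctctgct
Hoxc13, chr15:102751898-102751927, plus strand: atcccagcCCCGGAGGCGGCGCgccaatgc
Hoxd3, chr2:74553970-74553999, plus strand: agctttgtCCAGGAGGAGGCGCtgtaggac
Evx2, chr2:74493574-74493603, minus strand: tcctgctgCCGCTAGGGGGCGCcccggggg
The Hoxb5 match lay 656.5 bp downstream of the TSS of this group 5 gene, in its UTR, and was 41538.5 bp from the nearest peak. The Hoxc13 match was in a coding exon, 378.5 bp downstream of the TSS, with the nearest peak 136216 bp away. The Hoxd3 match was intronic, 3998.5 bp downstream of the nearest Hoxd3 TSS and also in an exon of the opposite-strand lincRNA 1700109F18Rik, and was 59903 bp from the nearest peak. The match in a coding exon of Evx2 was 493 bp from the midpoint of the Evx2 peak, outside its limits, although the sequence within the peak had 1 mismatch. The other exact matches of the windows were 1 at -90.5 bp from the TSS of Ttll6 and 2 between Hoxb1 and Skap1.

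The A6G change of the Hoxa5 and Evx2 peaks was not rare among CTCFL peaks. Of 2835 matches with exactly 1 mismatch in all peaks, 131 (4.62%, 3.91 to 5.46%) had A6G, the seventh most frequent of the single substitutions. The most frequent, G8A, made up 15.4%.

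The list gives no peak height, and width was the only size that could be compared. The 4 peaks measured 416 bp at Hoxa5, 496 bp at Evx2, 556 bp between Hoxb1 and Skap1, and 633 bp between Hoxb13 and Hoxb9. Among 7436 peaks ordered from the widest, these had ranks 4422, 2926, 2048 and 1150. The median over all peaks was 454 bp with quartiles of 359.75 and 571 bp, so only the Hoxa5 peak was narrower than the median and only the peak between Hoxb13 and Hoxb9 was above the upper quartile. Leaving out all peaks narrower than the median removed the Hoxa5 peak and left 0 Hox genes with a promoter peak, beside 7.51% of all protein-coding genes under the same limit.

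**Figure D4:**
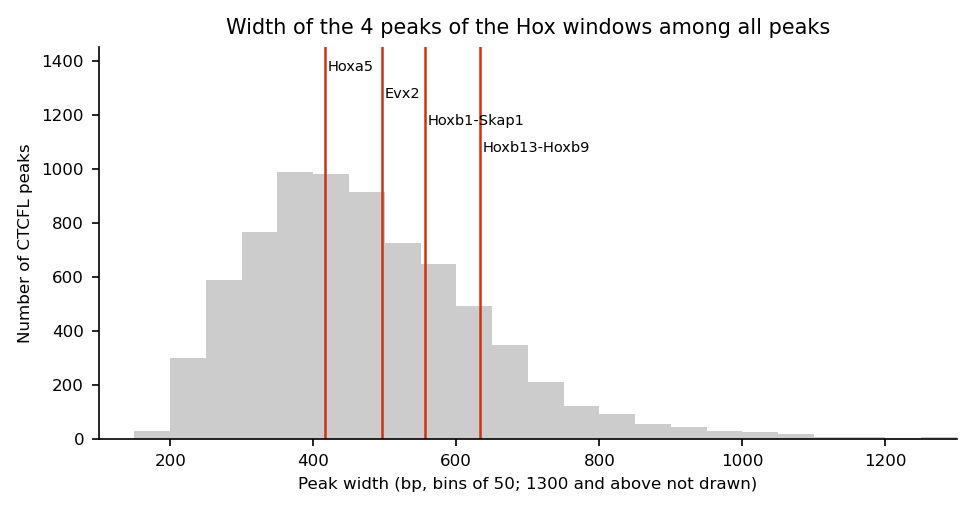
Number of CTCFL peaks (y axis) by width in bins of 50 bp (x axis), with the widths of the 4 peaks in the Hox windows as red lines. The lines stand at 416, 496, 556 and 633 bp, across the body of the distribution, whose median is 454 bp.

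Finally, genes that work with or upon Hox genes were examined, from lists chosen by function with earlier results of these data known. Of the 9 TALE cofactors, homeodomain proteins that bind DNA together with Hox proteins, 1 had a promoter peak, Pknox2 at -191.5 bp (11.1%, 1.99 to 43.5%). In the same list, Meis1 and Meis2 had their nearest peaks at 675754 and 693720 bp. Of 13 homeobox genes related to Hox, 1 had a promoter peak, Gbx1 at -40.5 bp (7.69%, 1.37 to 33.3%). The Cdx genes, regulators of Hox expression, had their nearest peak at 57742 bp for Cdx1, 7861 bp for Cdx2 and -1070504.5 bp for Cdx4. Both shares were near the 11.2% of all genes.

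Of 31 genes for Polycomb subunits, which keep Hox genes silent, 3 had a promoter peak (9.68%, 3.35 to 24.9%). These were Ezh1, a histone H3K27 methyltransferase, at -75.5 bp, and Pcgf2, a subunit of the H2A ubiquitin ligase complex, at 687.5 bp from an internal TSS. The other was Kdm2b, which brings Polycomb complexes to CpG islands, at 84.5 bp, also from an internal TSS. Ezh2, Eed and Suz12, which also belong to the core of the H3K27 methyltransferase complex, had their nearest peaks at -182982, 13303.5 and 93981 bp. Of 15 genes for Trithorax and MLL subunits, which maintain active Hox genes, 5 had a promoter peak (33.3%, 15.2 to 58.3%). They were Wdr5 at -258.5 bp, Rbbp5 at -369 bp and Dpy30 at -279 bp from an internal TSS. These are some, not all, of the core subunits shared by H3K4 methyltransferase complexes. The others, which tie MLL to chromatin, were Men1 at -318.5 bp and Psip1 at 264.5 bp from an internal TSS. The lower end of this interval is above the 11.2% of all protein-coding genes and below the 18.4% of those with a CpG-rich start. Among genes of this list without a promoter peak, the distance varied widely. The nearest peak was at -2506 bp for Setd1a and 6908.5 bp for Setd1b, but at 44589 bp for the methyltransferase gene Mll1 and 97116 bp for Ash2l. Within 10 kb of a peak were 8 of the 15 genes (53.3%, no interval computed), beside 20.5% of all genes. Over all 4 lists 10 of 68 genes had a promoter peak (14.7%, 8.19 to 24.997%).

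**Figure D5:**
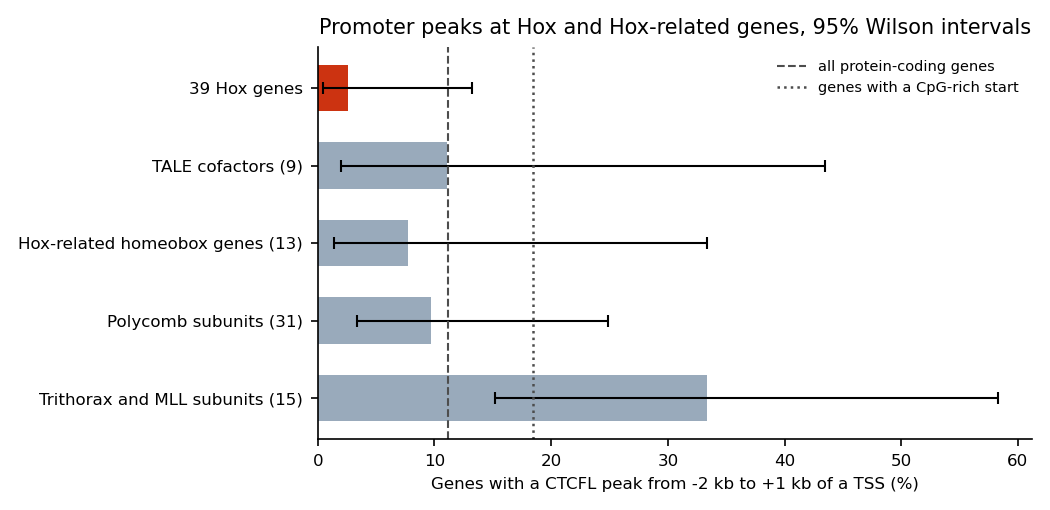
Share of genes with a CTCFL peak midpoint from -2 kb to +1 kb of a TSS (x axis, %) for the 39 Hox genes (red) and the 4 lists of related genes (gray, number of genes in parentheses); bars start at 0, black lines are 95% Wilson intervals, and the dashed and dotted lines are all protein-coding genes and those with a CpG-rich start. The Hox share is 2.56%, and that of Trithorax and MLL subunits is 33.3%.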

How the data were processed

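CTCFL ChIP-seq was analysed from 1 deposited list of the start and end positions (bp, mm9) of peaks in induced ES cells, and no other unit was available. Per the study's methods, its own reads of 36 bases were aligned with ELAND, and non-induced cells were the control for the V5 antibody. For published data sets they name BOWTIE, a filter for unambiguous and unique reads, and MACS with an fdr limit. Which of these steps and limits made the deposited list is not given in the sources used here. The list does not show the depth per sample.

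Peaks were compared with the mm9 reference genome and GENCODE annotation. All peaks fitted the chromosome lengths. Genes on chromosomes without peaks were left out, and 40 gene IDs gave 39 symbols because Hoxa3 has 2. Consensus matches were sought on both strands with up to 1 mismatch, and every 36-base window was looked up in the whole genome. Counts carry exact Poisson and shares Wilson 95% intervals. With 1 library per condition no tests were run. Scripts used Python 3.11.15, numpy 2.4.6, scipy 1.17.1, pysam 0.24.0, numba 0.67.0 and matplotlib 3.10.9 and were tested on simulated data.

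The members and gene lists were chosen with earlier results of these data known. Named were the Hox genes, all peaks of the windows, the genes nearest to or spanning them, miRNA and long non-coding genes inside the clusters, and list genes with a promoter peak. List genes without one and Ttll6, as well as the comparisons with CpG-rich starts, with windows of the genome and with peak-free stretches, were chosen after seeing the data. Values of single genes that are not named are not reported here.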

Additional observations from a re-analysis of the deposited data

How the results depend on the processing

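Of 34 alternatives to the settings of 9 results, 25 kept the value within the limits set for it and 9 did not. With 200 kb on either side the windows held 10 peaks and the flanks 8. The added peaks lay beside Hoxa and Hoxc only, most of them beside Hoxc, whose window with 100 kb held 0. The comparison of the 4 windows thus depended on this limit. The first peak outside the limit of 100 kb lay 100804 bp beyond an edge of the Hoxa cluster. Without the peaks narrower than the median, 1 peak was left inside the clusters, 0 Hox genes had a promoter peak (7.51% of all genes) and the median distance was 106956 bp (137482 bp over all genes), as the Hoxa5 peak was among those left out. With a promoter from -5 kb to +5 kb 2 Hox genes had a peak, beside 15.5% of all genes. Within 5 kb were 2 Hox genes and within 20 kb 8, beside 15.5 and 29.2% of all genes. With an exact match required, 1 of the 4 peaks had the consensus, beside 12.8% of all peaks. No paired analysis was possible because there was 1 library for each condition.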
